A study of Drosophila melanogaster with 12 samples.

Results

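The comparison described here asks whether adult Drosophila melanogaster mutant for the nuclear receptor DHR96 answer phenobarbital differently from wild type. Its measure is a difference of differences on the log2 scale, the phenobarbital response of the mutant minus the phenobarbital response of wild type, and it is called the difference between responses below. All 12 of the 12 expression arrays of the study enter it, 3 for each of 4 groups: the mutant on phenobarbital, the mutant on sucrose, wild type on phenobarbital and wild type on sucrose. Every group was starved overnight before it was fed, and the drug was given in sucrose at 0.3%. Wild type was Canton S, which the titles shorten to CS. The titles call the other strain E25; it was read as the DHR96 mutant because the study names only these 2 strains. The labels describe neither the mutant allele nor the genetic background of that strain, nor the sex of the flies. Separate cultures are not stated for the replicates either, so a p-value speaks only of the spread among these arrays, which can be technical.

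The result is read on the probe sets with a mean log2 intensity of at least 4 over the 12 arrays, an intensity of 16. Of 18769 probe sets on the array, 10341 (55.1%) met this, and they name 8754 of 11982 genes. Just inside the limit lay CG17197 and List, with mean log2 values of 4.0002 and 4.001 and differences of -0.14 and 0.06. Just outside lay HDAC11 and Burs, at 3.9997 and 3.9995, with differences of 0.18 and 0.43. The limit also set aside Npc2d and MFS1 (mean log2 3.83 and 3.62), which were above 4 on wild-type sucrose arrays but in no other group's mean, at 8.79 and 6.37. Their differences were 6.35 and 2.44.

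DHR96, encoded by Hr96, is a ligand-regulated transcription factor related to the vertebrate receptors PXR and CAR, which switch on drug-metabolising enzymes when foreign compounds are present. In the fly it is known both for its part in the response to xenobiotics and for the control of lipid and cholesterol handling, including genes of intestinal lipid digestion. Phenobarbital is a barbiturate that serves as a model inducer of cytochrome P450s, glutathione S-transferases and UDP-glycosyltransferases, the enzymes that oxidise drugs and then couple them to glutathione or sugars. A positive difference between responses means that the mutant's change was the more upward one. It can arise because a gene was induced more in the mutant, or because it was repressed more in wild type, and the values of all 4 groups are needed to tell these cases.

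Hr96 itself had log2 intensities of 10.23, 10.18 and 10.30 in the mutant on phenobarbital, 10.06, 9.99 and 9.91 in the mutant on sucrose, against 8.44, 8.30 and 8.85 in wild type on phenobarbital and 8.44, 8.20 and 8.53 in wild type on sucrose. Every array labelled mutant was above every wild-type array on either diet. This separates the genotypes as labelled but does not show a loss of function, so each direction given for the mutant is that of the arrays labelled mutant. The transcript's own difference between responses was 0.11 ± 0.19 (SE), with a 95% interval of -0.32 to 0.55.

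Arrays of 1 group were not alike in reproductive tissue. The mean log2 intensity of 16 eggshell and yolk genes was 7.31, 10.04 and 9.82 in the mutant on phenobarbital, 11.16, 11.15 and 10.26 in the mutant on sucrose, against 5.87, 5.83 and 7.50 in wild type on phenobarbital and 9.41, 6.64 and 9.70 in wild type on sucrose. Array 1 of the mutant on phenobarbital and array 2 of wild type on sucrose were thus low for their groups. For 22 testis genes the array means lay at 8.80 to 9.47 in the mutant on phenobarbital, 9.53 to 10.32 in the mutant on sucrose, 9.25 to 9.92 in wild type on phenobarbital and 9.60 to 10.38 in wild type on sucrose. Summed intensities over all 25 measured testis genes ran from 27596 to 44278, 48736 to 80918, 38009 to 61514 and 47152 to 79204 in these groups. In whole flies a smaller organ and less RNA per cell cannot be told apart, and the part of these tissues in the results was not tested beyond the fits that carry a marker mean as a covariate. Array medians lay between 38.5 and 47.5 in intensity, and 2 arrays of a group differed with an SD of 0.28 to 0.68 on the log2 scale over the readable probe sets.

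**Figure D1:**
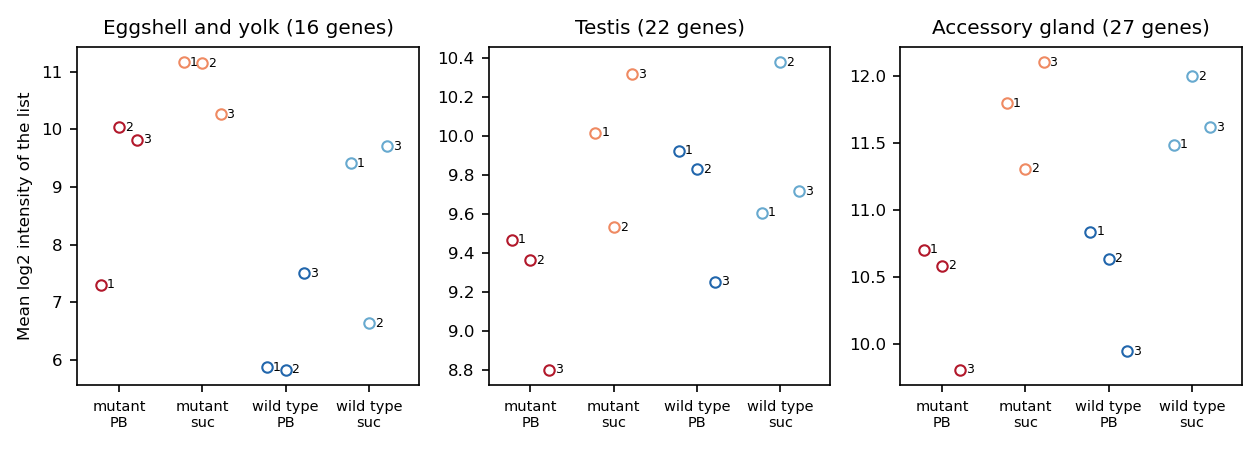
Mean log2 intensity (vertical axis) of the eggshell and yolk, testis and accessory gland genes on each array; numbers beside the circles are replicate numbers, and PB and suc stand for phenobarbital and sucrose. The accessory gland means of both phenobarbital groups lie below those of both sucrose groups, while the eggshell means of single arrays, such as mutant phenobarbital array 1 at 7.31 and wild-type sucrose array 2 at 6.64, stand apart from their groups.

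No probe set passed the test for a difference between responses. The call needed an adjusted p under 0.05 over all 18769 probe sets (limma, Benjamini and Hochberg) and at least a 1.5-fold difference, and 0 probe sets (0%) met it; the smallest adjusted p was 0.0723 over all probe sets and 0.112 among the readable ones. At an unadjusted p under 0.05 there were 519 readable probe sets, 5.02% of them, made up of 469 with the mutant response above the wild-type one (4.54%) and 50 below (0.484%). After quantile normalization of the arrays this split was 314 to 116. Requiring 1.5-fold as well left 157 above (1.52%) and 25 below (0.242%). Since none passed the adjusted test, the genes below are given as values with their errors, and no difference between responses among them is a call. The same fit called 867 probe sets (4.62%) for phenobarbital in the mutant, 579 of them higher (3.08%), and 801 (4.27%) for phenobarbital in wild type, 426 of them higher (2.27%).

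The difference between responses was on the whole slightly positive. Its median over the readable probe sets was 0.087, with quartiles at -0.059 and 0.219, and 67.2% of them were above 0; over all 18769 it was -0.011. The median was 0.026 after quantile normalization and -0.004 with array weights. The median SE was 0.24, and the 95% interval had a median half-width of 0.55. In 7004 readable probe sets (67.7%) the whole interval lay within a 2-fold difference in either direction, so for those a larger difference between responses lies outside the interval. For the rest the interval reached beyond 2-fold on at least 1 side.

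**Figure D2:**
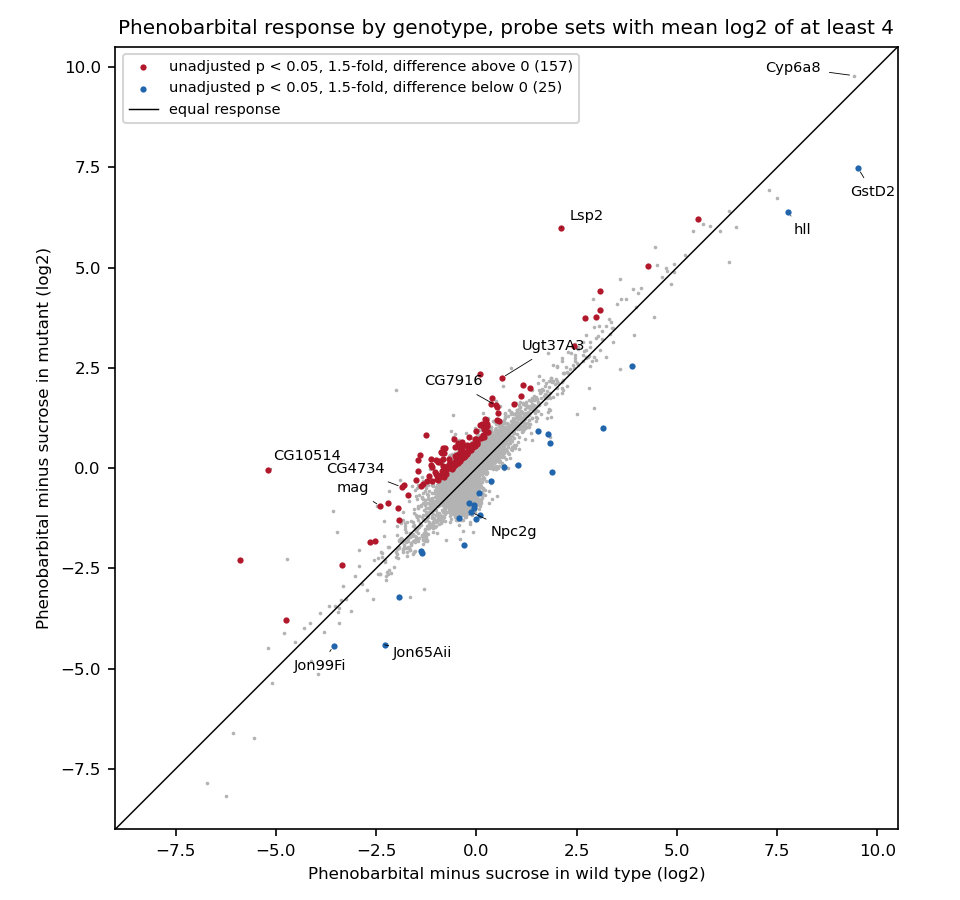
Phenobarbital response (phenobarbital minus sucrose, log2) of the mutant on the vertical axis against that of wild type on the horizontal axis, 1 point per readable probe set, with the line of equal responses. Most points follow the line over the whole range of responses; red points (157) lie above it and blue points (25) below it at an unadjusted p under 0.05 and 1.5-fold, and none passed the adjusted test.

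Genes that lead the response to the drug can be chosen without the difference itself, since the mean of both responses is a separate contrast. On that mean, 544 readable probe sets were called higher and 483 lower (over all probe sets 1070, or 5.70%, were called, 3.01% higher and 2.69% lower). Those called higher had a median response of 1.18 in the mutant and 1.05 in wild type, and 419 of 544 (77.0%) responded more in the mutant. For risers this means a difference above 0, which 67.2% of all readable probe sets had. Their median difference was 0.14, beside 0.087 for all readable probe sets, and the interval stayed within 2-fold in 383 of the 544 (70.4%). The mean log2 of the 544 was 9.36 on wild-type phenobarbital array 1, beside 9.71 and 9.58 on arrays 2 and 3, which lowers the wild-type response. On wild-type sucrose array 3 it was 7.90, beside 8.25 and 8.11 on arrays 1 and 2, which raises that response. How far the 77.0% rests on single arrays was not tested. Those called lower had median responses of -1.04 in the mutant and -1.11 in wild type, and 243 of 483 (50.3%) fell further in the mutant. For fallers this means a difference below 0, whereas 67.2% of all readable probe sets had one above 0. The 50.3% is thus also above the share in all readable probe sets. Among all 1027 responders, 78 had a positive and 20 a negative difference at an unadjusted p under 0.05 (9.54%), against 391 and 30 of the 9314 others (4.52%). Both contrasts use the same estimate of spread for a probe set, so a low estimate favours both. These shares are thus not independent of how the responders were chosen.

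Of the 6 genes with the strongest mean rise, GstD2 and hll had intervals wholly below 0 and are described with the genes that rose further in wild type. The other 4 follow. Cyp6a8, a cytochrome P450, reached 12.41, 12.81 and 12.61 in the mutant on phenobarbital against 2.73, 2.91 and 2.83 in the mutant on sucrose, and 12.29, 12.32 and 12.27 in wild type on phenobarbital against 2.92, 3.02 and 2.71 in wild type on sucrose. Both rises exceed 9 on the log2 scale, both sucrose groups are below the limit of 4, and the difference between responses was 0.38 (95% interval 0.03 to 0.72). For the glutathione S-transferase gene GstD7 it was 0.13 (-0.57 to 0.84), and for the glycine methyltransferase gene Gnmt, which uses up methyl groups of the methionine cycle, -0.47 (-1.90 to 0.96). CG34040 had a difference of -0.77 (-2.57 to 1.02). Among the genes that fell most in both genotypes, phu differed by 0.72 (-0.19 to 1.62), CG11892 of the EcKL family of kinase-like proteins by -0.27 (-1.94 to 1.39), and fit, a female-biased fat body gene, by -1.16 (-2.63 to 0.31). The vitelline membrane genes Vm26Aa and Vm34Ca had intervals of -4.41 to 0.54 and -4.52 to 2.27, and dec, which was called for the mean response but for neither genotype alone, one of -6.13 to 3.75. All 3 are eggshell genes. The arrays of dec spread widely within a group, with 2.30, 8.62 and 7.42 in wild type on sucrose.

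**Figure D3:**
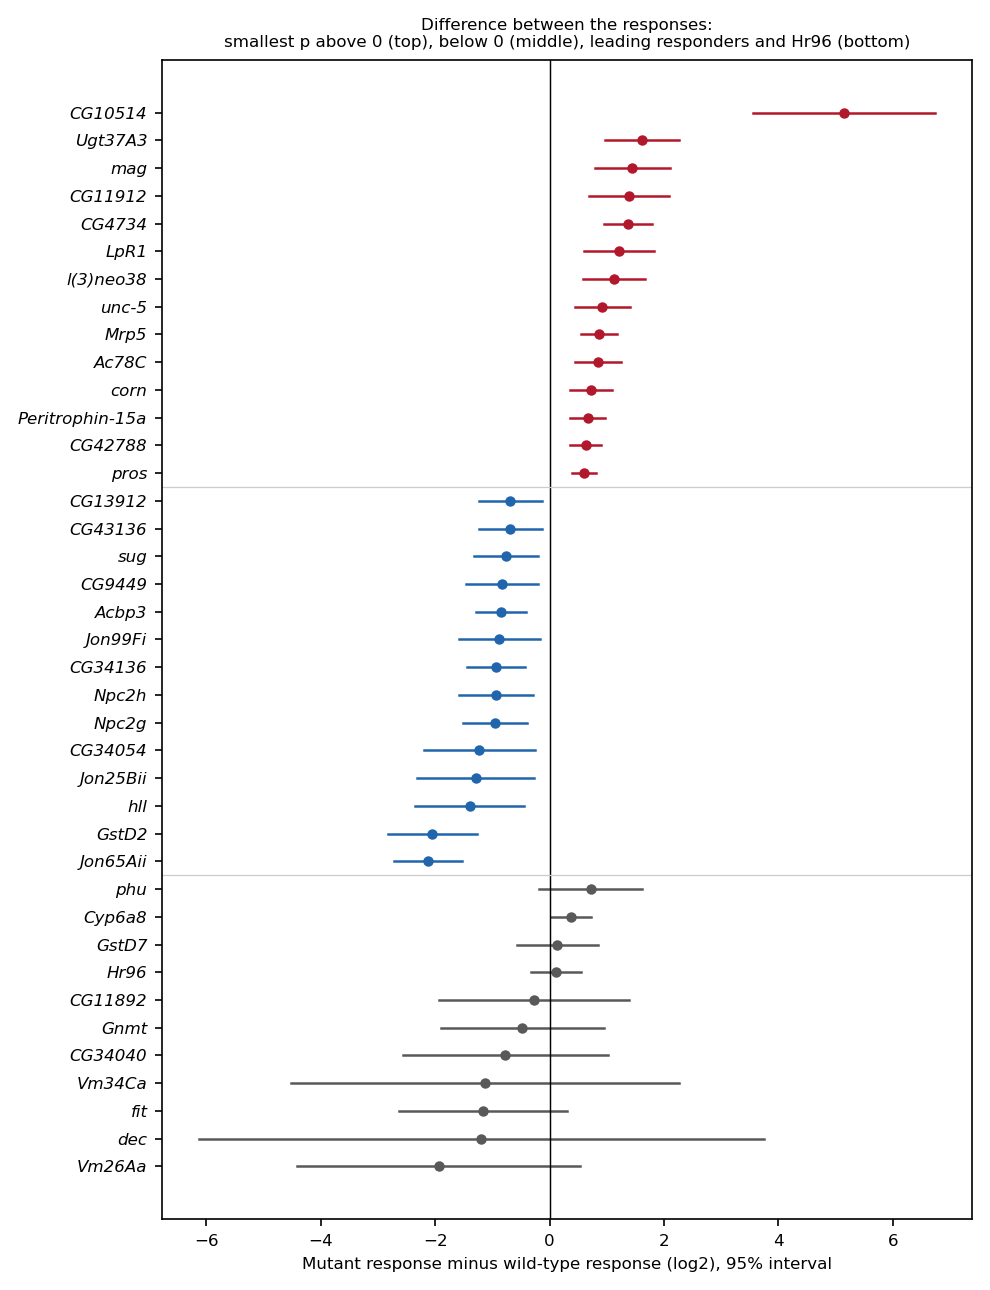
Difference between responses (mutant minus wild type, log2, horizontal axis) with its 95% interval for the 14 genes of smallest p above 0 (top), the 14 below 0 (middle) and the leading responders with Hr96 (bottom). CG10514 stands at 5.15 and Jon65Aii and GstD2 below -2, while the intervals of Hr96, GstD7 and phu include 0 and those of Vm26Aa, Vm34Ca and dec are several units wide.

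The 182 probe sets at 1.5-fold and an unadjusted p under 0.05 fall into 4 kinds. In 87 the larger response was a decrease in wild type, in 70 an increase in the mutant, in 14 a decrease in the mutant and in 11 an increase in wild type. A positive difference allows only the kinds of 87 and 70, a negative one only those of 14 and 11. Over all 10341 readable probe sets the larger response was in the mutant for 6623 and in wild type for 3718. Among the 182 it was in wild type slightly more often. Whether this departs from all readable probe sets was not tested. The response itself was called in both genotypes for 27, in the mutant alone for 34, in wild type alone for 37 and in neither for 84. These calls were not counted over all readable probe sets. A call in 1 genotype alone does not show that the genotypes differ in their response. That is what the difference between responses measures. In 166 of the 182 probe sets every group mean was at least 4. In 4, 9 and 3 of them, 1, 2 and 3 group means were below 4, so their responses start or end under the readable range.

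The largest kind holds genes whose larger response was a decrease in wild type. CG10514, another EcKL gene, had the difference farthest from 0 among the readable genes described here. It had 2.18 on all 3 arrays of the mutant on phenobarbital and 2.26, 2.19 and 2.26 in the mutant on sucrose, against 4.54, 3.65 and 2.20 in wild type on phenobarbital and 8.99, 8.90 and 8.13 in wild type on sucrose. Only the wild-type sucrose group was clearly measurable, and the gene's mean log2 of 4.14 passed the limit of 4 only through that group. The gene fell in wild type (-5.21 ± 0.50, SE; adjusted p = 0.000284, limma), and the difference between responses was 5.15 ± 0.70 (95% interval 3.56 to 6.74; unadjusted p = 4.82e-05, adjusted p = 0.129). Since the mutant was below the limit of 4 on both diets, no further fall could be read there.

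Mrp5, an ABC transporter of the multidrug resistance protein type, shows the same shape at a level that every group could reach. It had 6.67, 6.67 and 6.54 in the mutant on phenobarbital and 6.83, 6.59 and 6.91 in the mutant on sucrose, against 6.44, 6.37 and 6.46 in wild type on phenobarbital and 7.61, 7.39 and 7.29 in wild type on sucrose. The wild-type sucrose arrays lie above all 9 others. Mrp5 fell in wild type (-1.01 ± 0.10) while the mutant's response was -0.15 ± 0.10, and the difference was 0.86 ± 0.14 (interval 0.55 to 1.17; adjusted p = 0.286). The homeodomain gene pros, known as prospero and active in neural and gut endocrine cells, had 4.47, 4.47 and 4.58 in the mutant on phenobarbital and 4.41, 4.48 and 4.62 in the mutant on sucrose, against 4.48, 4.53 and 4.51 in wild type on phenobarbital and 5.05, 5.04 and 5.23 in wild type on sucrose. Again 1 group stood above the other 3, and the difference was 0.60 ± 0.09 (adjusted p = 0.246).

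Genes of lipid handling belong to this kind as well. The intestinal lipase gene mag, whose product (magro) digests dietary fat and is a known DHR96 target, had 8.07, 8.08 and 7.66 in the mutant on phenobarbital, 8.71, 8.91 and 9.03 in the mutant on sucrose, against 8.63, 9.14 and 8.57 in wild type on phenobarbital and 11.48, 11.19 and 10.87 in wild type on sucrose. It fell in both genotypes, by 0.95 ± 0.21 in the mutant and by 2.40 ± 0.21 in wild type, and the difference of 1.45 ± 0.29 (adjusted p = 0.712) goes with a level on sucrose that was lower in the mutant than in wild type. LpR1, a lipoprotein receptor, had 4.82, 4.46 and 4.84 in the mutant on phenobarbital and 4.70, 4.81 and 4.39 in the mutant on sucrose, against 4.99, 4.88 and 5.13 in wild type on phenobarbital and 6.50, 6.14 and 5.78 in wild type on sucrose, a difference of 1.21 ± 0.27. A second and brighter LpR1 probe set, with a mean log2 of 10.07, gave a difference of 0.06 ± 0.07, and thus did not match the first.

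In others too the larger response was a fall in wild type, with differences of a similar size. CG11912 had 6.52 to 6.77 in the mutant on phenobarbital and 6.91 to 7.43 in the mutant on sucrose, against 6.85 to 7.50 in wild type on phenobarbital and 8.65 to 9.28 in wild type on sucrose (difference 1.38 ± 0.31). The zinc finger gene l(3)neo38 differed by 1.12 ± 0.24, and its brighter probe set by 0.41 ± 0.12. Vha100-5, a subunit of the vacuolar proton pump, differed by 0.79 ± 0.24. CG42788 had a positive difference of 0.63 ± 0.12 with a wild-type response of -0.55 ± 0.08, which is under 1.5-fold and so was not called, and its dimmer probe set, at a mean log2 of 2.46, showed none (-0.02 ± 0.12).

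CG4734 had the smallest unadjusted p among the readable genes with a positive difference. It had 13.29, 13.31 and 13.16 in the mutant on phenobarbital and 13.64, 13.76 and 13.79 in the mutant on sucrose, against 9.83, 9.59 and 9.98 in wild type on phenobarbital and 11.91, 11.60 and 11.44 in wild type on sucrose. All 4 groups are separate, with both mutant groups on top. It fell in wild type (-1.85 ± 0.13), the mutant's response was -0.48 ± 0.13, and the difference was 1.38 ± 0.18 (interval 0.96 to 1.79; unadjusted p = 4.21e-05, adjusted p = 0.129, limma).

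**Figure D4:**
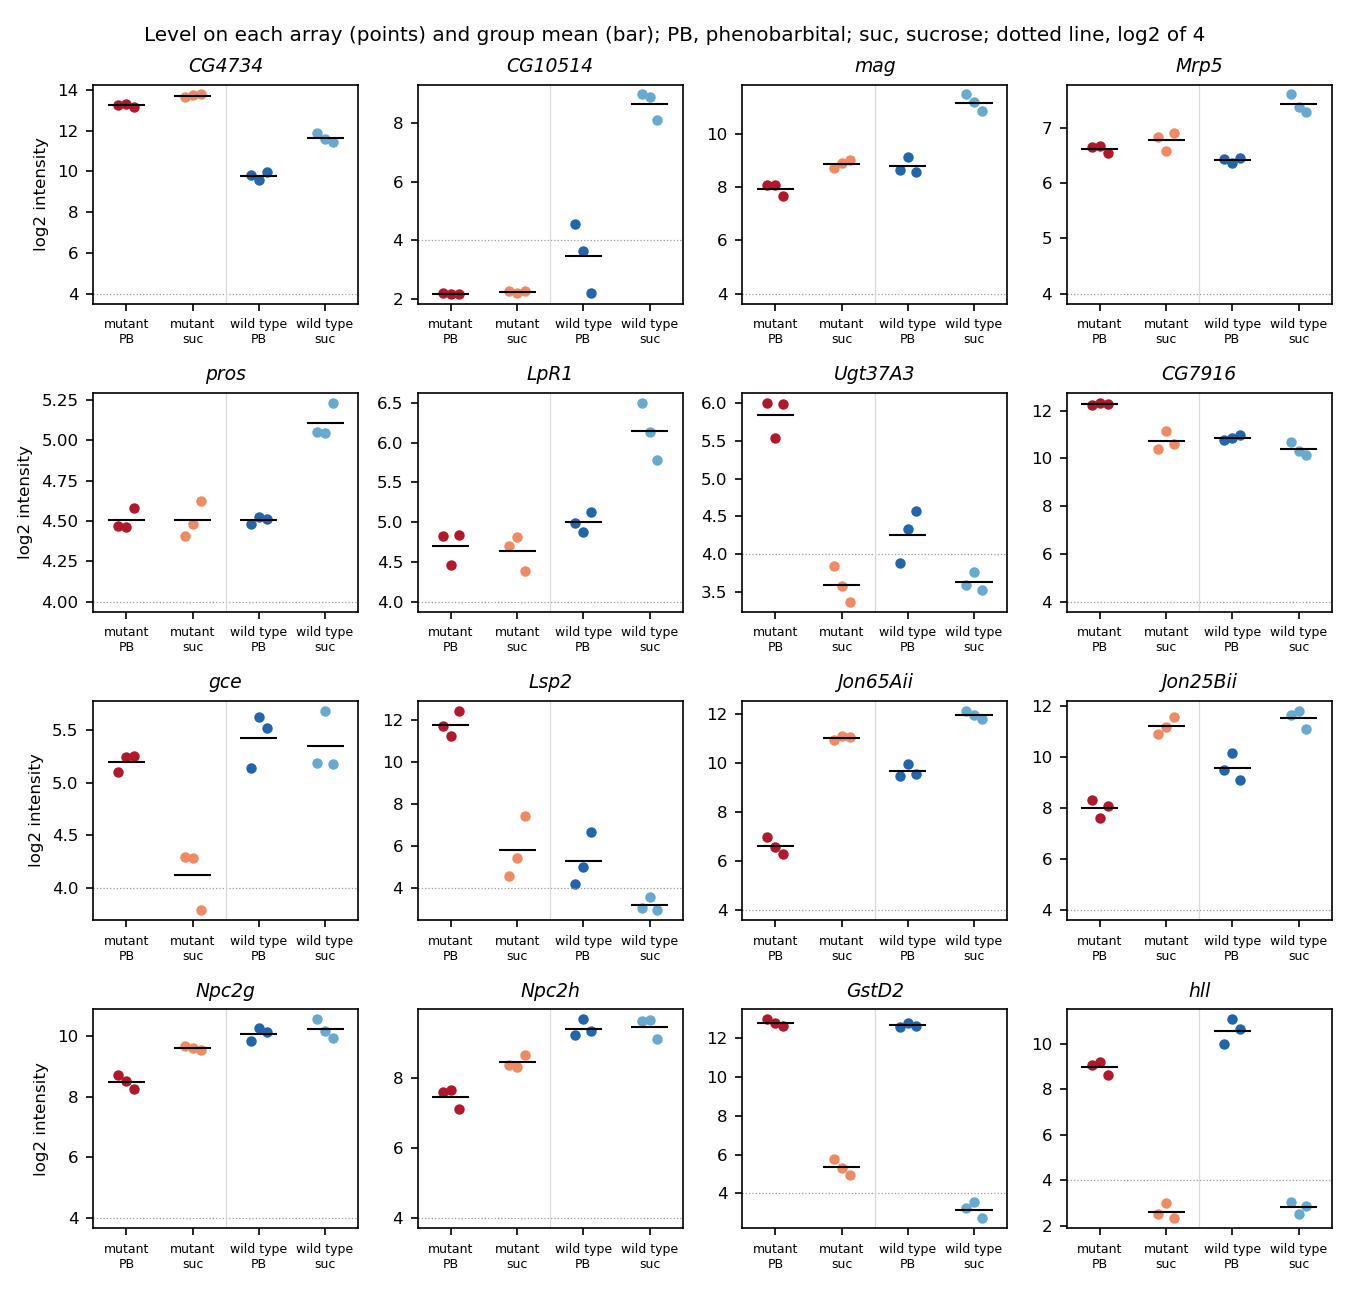
Log2 intensity (vertical axes, scaled per gene) of 16 genes on each of the 12 arrays (points) with group means (bars), by genotype and diet; PB stands for phenobarbital, suc for sucrose, and the dotted line marks a log2 of 4. In CG10514, mag, Mrp5, pros and LpR1 the wild-type sucrose arrays lie above the other groups, in Ugt37A3, CG7916 and Lsp2 the mutant phenobarbital arrays do, and in Jon65Aii, Npc2g and Npc2h the mutant phenobarbital arrays lie below.

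The second kind holds genes whose larger response was an increase in the mutant. Ugt37A3, a UDP-glycosyltransferase, had 6.01, 5.53 and 5.99 in the mutant on phenobarbital and 3.85, 3.57 and 3.37 in the mutant on sucrose, against 3.88, 4.33 and 4.57 in wild type on phenobarbital and 3.58, 3.77 and 3.53 in wild type on sucrose. The 3 mutant phenobarbital arrays lie above the 9 others. The gene rose in the mutant (2.25 ± 0.20, adjusted p = 0.000185), the wild-type response was 0.63 ± 0.20, and the difference was 1.61 ± 0.29 (interval 0.97 to 2.26; adjusted p = 0.427). Both sucrose groups were below 4, so these responses are read from the edge of the range. Ugt37A2, its neighbour on chromosome 3R, reached 11.80, 11.90 and 11.94 in the mutant and 11.63, 11.84 and 12.02 in wild type on the drug. On sucrose it had 7.07, 6.74 and 6.69 in the mutant and 7.90, 7.57 and 7.20 in wild type. Its difference of 0.77 ± 0.25 therefore comes from the sucrose diet, where the mutant was the lower one, and the levels on phenobarbital overlap.

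Lsp2, which encodes a larval serum protein that stores amino acids, was also higher on the drug in the mutant than in any other group. It had 11.72, 11.24 and 12.46 in the mutant on phenobarbital and 4.57, 5.41 and 7.45 in the mutant on sucrose, against 4.20, 4.99 and 6.67 in wild type on phenobarbital and 3.03, 3.55 and 2.93 in wild type on sucrose. It rose in the mutant (5.998 ± 0.80, adjusted p = 0.00187), the wild-type response was 2.12 ± 0.80, and the difference was 3.88 ± 1.13 (interval 1.31 to 6.46; unadjusted p = 0.00785, adjusted p = 0.841). Arrays of 1 group spread over more than 2 log2 units, and array 3 was the highest in 3 of the 4 groups.

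The juvenile hormone receptor gene gce (germ cell-expressed) had 5.10, 5.24 and 5.25 in the mutant on phenobarbital and 4.29, 4.28 and 3.79 in the mutant on sucrose, against 5.14, 5.62 and 5.52 in wild type on phenobarbital and 5.19, 5.68 and 5.18 in wild type on sucrose. Here the mutant on sucrose is the group that stands apart, below the other 3, and on the drug the mutant was at their level. The difference was 0.999 ± 0.27. Ac78C, an adenylyl cyclase that makes cyclic AMP, has the same form, with 5.06 to 5.29 in the mutant on phenobarbital, 3.94 to 4.18 in the mutant on sucrose, 4.65 to 5.09 in wild type on phenobarbital and 4.59 to 4.81 in wild type on sucrose (difference 0.85 ± 0.18). So has kappaTry, a trypsin-like protease, which rose in the mutant (1.20 ± 0.23) against a wild-type response of 0.23 ± 0.23.

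In many of the 182 probe sets the mean responses had opposite signs, and a few of these genes follow. Corn, with 6.84, 6.81 and 6.78 in the mutant on phenobarbital and 6.52, 6.46 and 6.65 in the mutant on sucrose, had 6.30, 6.72 and 6.56 in wild type on phenobarbital and 7.16, 6.97 and 6.82 in wild type on sucrose. The diets did not overlap in either genotype, the mutant being higher and wild type lower on the drug, and the difference was 0.73 ± 0.16 (adjusted p = 0.820). Of the 10341 readable probe sets, 13 (0.126%) had such opposite responses without overlap. The netrin receptor gene unc-5 had a difference of 0.92 ± 0.21, with responses of 0.59 ± 0.15 in the mutant and -0.33 ± 0.15 in wild type, neither of them called. Peritrophin-15a, a chitin-binding protein of the gut lining, had 10.43, 10.50 and 10.19 in the mutant on phenobarbital and 9.79, 9.70 and 9.90 in the mutant on sucrose, against 10.02 to 10.29 in wild type on phenobarbital and 10.23 to 10.35 in wild type on sucrose (difference 0.67 ± 0.13). The wild-type arrays of Peritrophin-15a overlapped between diets, so its responses were opposite only in the sign of their means. The mutant sucrose arrays were the low ones here too.

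The third kind, with larger falls in the mutant, is led by digestive proteases. Jon65Aii, of the Jonah family of secreted serine proteases, had 6.99, 6.56 and 6.28 in the mutant on phenobarbital and 10.94, 11.07 and 11.04 in the mutant on sucrose, against 9.46, 9.95 and 9.55 in wild type on phenobarbital and 12.10, 11.94 and 11.77 in wild type on sucrose. No groups overlap, and the mutant phenobarbital arrays are lowest by more than 2 log2 units. The gene fell in both genotypes, by 4.41 ± 0.19 in the mutant and by 2.29 ± 0.19 in wild type. The difference was -2.12 ± 0.26 (interval -2.72 to -1.52; unadjusted p = 2.40e-05, adjusted p = 0.112, limma), the smallest p of any readable probe set with 1 gene name. Jon25Bii had 8.32, 7.62 and 8.08 in the mutant on phenobarbital and 10.90, 11.19 and 11.57 in the mutant on sucrose, against 9.48, 10.18 and 9.11 in wild type on phenobarbital and 11.65, 11.81 and 11.09 in wild type on sucrose (difference -1.29 ± 0.45). For Jon99Fi the difference was -0.88 ± 0.31, with falls of 4.44 ± 0.22 in the mutant and 3.56 ± 0.22 in wild type. Jonah genes are close in sequence, and probe sets of such families may share signal.

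Sterol-binding genes of the Npc2 family form a second set of this kind. Npc2g had 8.70, 8.51 and 8.26 in the mutant on phenobarbital and 9.66, 9.58 and 9.52 in the mutant on sucrose, against 9.83, 10.24 and 10.11 in wild type on phenobarbital and 10.54, 10.16 and 9.91 in wild type on sucrose. Npc2h, which lies next to it on chromosome 3R, had 7.59, 7.65 and 7.12 in the mutant on phenobarbital and 8.37, 8.31 and 8.66 in the mutant on sucrose, against 9.21, 9.67 and 9.33 in wild type on phenobarbital and 9.63, 9.65 and 9.12 in wild type on sucrose. In both genes the mutant phenobarbital arrays are the lowest, the mutant sucrose arrays come next, and the wild-type arrays overlap between diets. Npc2g fell in the mutant (-1.09 ± 0.17, against -0.14 ± 0.17 in wild type), as did Npc2h (-0.999 ± 0.20, against -0.06 ± 0.20). Their differences were -0.95 ± 0.24 and -0.94 ± 0.28, with an adjusted p of 0.841 each. Npc2f had a positive difference of 0.65 ± 0.26, so members of the family differed in sign. Npc2d, set aside by the limit of 4, had a positive difference of 6.35 ± 0.68 (adjusted p = 0.0723, limma).

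Acbp3, an acyl-CoA-binding protein gene, fell in the mutant (-0.91 ± 0.14) and had a wild-type response of -0.06 ± 0.14, a difference of -0.85 ± 0.20. Its mutant sucrose arrays, at 9.75 to 9.87, were the group that stood apart, above 8.64 to 9.06 in the mutant on phenobarbital, 8.76 to 9.15 in wild type on phenobarbital and 8.86 to 9.17 in wild type on sucrose. The gene sug (sugarbabe), a zinc finger factor that responds to dietary sugar, fell in both genotypes, to 7.93, 8.40 and 7.72 in the mutant on phenobarbital against 9.91, 10.21 and 10.30 in the mutant on sucrose, and to 9.25, 9.09 and 9.45 in wild type on phenobarbital against 10.70, 10.67 and 10.52 in wild type on sucrose. Its difference was -0.76 ± 0.25. CG9449, CG43136 and CG13912 had differences of -0.82 ± 0.28, -0.69 ± 0.24 and -0.68 ± 0.25, and a second CG9449 probe set gave -0.48 ± 0.19.

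The fourth kind, with larger rises in wild type, is the smallest. GstD2, a delta class glutathione S-transferase, had 12.99, 12.81 and 12.65 in the mutant on phenobarbital and 5.76, 5.33 and 4.94 in the mutant on sucrose, against 12.60, 12.81 and 12.65 in wild type on phenobarbital and 3.24, 3.54 and 2.72 in wild type on sucrose. On the drug both genotypes reached the same level, and the difference of -2.05 ± 0.34 (adjusted p = 0.336) lies in the sucrose groups, where the mutant was higher. Wild type on sucrose was below 4, so its rise of 9.52 ± 0.24 starts under the readable range. GstD5 had a difference of -2.17 ± 0.93, also from sucrose, with 8.01, 5.24 and 5.78 in the mutant against 4.72, 3.84 and 3.46 in wild type. The gene hll differed the other way about, on the drug. It had 9.08, 9.22 and 8.64 in the mutant on phenobarbital and 2.502, 2.997 and 2.32 in the mutant on sucrose, against 9.999, 11.08 and 10.66 in wild type on phenobarbital and 3.05, 2.52 and 2.87 in wild type on sucrose (difference -1.39 ± 0.42). CG34136 rose in both genotypes, by 0.84 ± 0.16 in the mutant and 1.78 ± 0.16 in wild type (difference -0.93 ± 0.22), and CG34054 rose in wild type (1.84 ± 0.30, against 0.62 ± 0.30 in the mutant; difference -1.23 ± 0.43).

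The pathway lists are read against all readable genes. Of the 8754 readable genes, each read through its brightest probe set, 427 (4.88%) reached that p, 393 higher (4.49%) and 34 lower (0.388%), and the median difference was 0.086. A difference above 0 was found in 66.5% of the 8754 genes. Among 60 readable P450 genes of 83 measured, 3 were higher (Cyp9b2, Cyp6a8 and Cyp49a1) and 0 lower, with a median difference of 0.24 and median responses of 1.01 in the mutant and 0.73 in wild type. Phenobarbital raised 34 P450 genes in the mutant and 29 in wild type, and lowered 3 in the mutant and 4 in wild type. This list depends on 1 array: without array 3 of wild type on sucrose, 19 of the 60 were higher, beside 637 of all 8754 readable genes (7.28%). That array had the lowest mean log2 over the P450 list in its group, 7.53, beside 7.95 and 7.82 on arrays 1 and 2. Glutathione S-transferases had 0 higher and 2 lower of 28, GstD2 and GstD5, with a median of -0.001; carboxylesterases, carbonyl and alcohol redox enzymes and antioxidant genes had 0 of 9, 12 and 15.

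UDP-glycosyltransferases were the family of drug metabolism with the highest share. Of 20 readable members among 35 measured, 8 were higher and 0 lower, 18 had a positive difference, and the median was 0.38. Median responses were 1.11 in the mutant and 0.59 in wild type, and 12 members rose in the mutant and 8 in wild type. Besides Ugt37A3 and Ugt37A2 the 8 were Ugt302C1 (0.41 ± 0.11), Ugt303B3 (0.43 ± 0.14), Ugt303A1 (0.84 ± 0.29), Ugt37B1 (0.76 ± 0.27), Ugt37D1 (0.90 ± 0.34) and Ugt302E1 (0.84 ± 0.36). Group means show where the gap lay. On phenobarbital Ugt37D1 had 9.49 in the mutant and 9.23 in wild type, and on sucrose 7.43 in the mutant and 8.07 in wild type. Ugt37B1 had 7.52 in the mutant and 7.17 in wild type on phenobarbital, and 3.76 in the mutant and 4.17 in wild type on sucrose. In both genes the mutant was higher on the drug and lower on sucrose.

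Transporters that move drugs and organic anions across membranes had 5 of 14 higher and 0 lower, with a median of 0.39. Besides Mrp5 these were Mdr65 (0.84 ± 0.32), a P-glycoprotein of the blood-brain barrier, the Mrp-type gene CG31793 (0.57 ± 0.21), Oatp58Da (0.52 ± 0.17) and Oatp74D (0.44 ± 0.15). Oatp74D imports the steroid hormone ecdysone. They did not share a response: CG31793 rose in the mutant, Oatp58Da fell in both genotypes, Mrp5 fell in wild type, and neither response of Mdr65 or Oatp74D was called. The EcKL family, whose members are thought to phosphorylate small molecules, had 3 of 32 higher (CG10514, CG31087 at 0.67 ± 0.22 and CG31098 at 0.34 ± 0.12) and a median of 0.23.

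Digestive enzymes split by family. Trypsin-like proteases had 3 of 10 higher, kappaTry, lambdaTry (1.21 ± 0.47) and etaTry (0.60 ± 0.27), and a median of 0.58, but the count was 1 without array 1 or 2 of the mutant on phenobarbital, array 1 or 3 of the mutant on sucrose or array 1 of wild type on phenobarbital, and with the testis covariate. Jonah proteases had 1 higher (Jon25Biii, 0.42 ± 0.15) and 3 lower of 11, with a median of -0.09, so the 3 strong members above do not speak for the family. Jon65Aiii and Jon65Aiv had differences of -0.13 ± 0.09 and -0.09 ± 0.06. Maltases and amylases had 0 of 10 in either direction, and their median responses were 2.52 in the mutant and 2.48 in wild type.

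The group of CG7916 and its relatives had 5 of 7 members higher and a median of 0.64. CG7916 had 12.25, 12.33 and 12.27 in the mutant on phenobarbital and 10.41, 11.14 and 10.61 in the mutant on sucrose, against 10.77, 10.87 and 10.97 in wild type on phenobarbital and 10.67, 10.31 and 10.15 in wild type on sucrose. It rose in the mutant, where its level on the drug was above all other arrays (difference 1.07 ± 0.26). CG7968 (2.25 ± 0.56) and CG8997 (0.59 ± 0.20) also rose in the mutant, with wild-type responses that were not called, and CG7953 had a difference of 0.64 ± 0.24. CG5767 and CG5770 had differences of -0.15 and -0.07. This group was first assembled in an earlier look at these arrays and is not independent evidence of its direction.

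Lists of lipid metabolism and regulation had from 0 to 3 members at the unadjusted p. Of 26 lipid handling genes, mag and the triglyceride lipase gene bmm (0.27 ± 0.07) were higher and apolpp, the lipophorin apoprotein, was lower (-0.34 ± 0.14). Npc1 and Npc2 genes had 1 of 7 higher and 2 lower, fatty acid oxidation 1 of 14 higher and glycolysis and sugar storage 0 of 15. Among 10 nuclear receptors other than Hr96, ERR, which controls genes of carbohydrate use, was higher (0.47 ± 0.09, adjusted p = 0.712), with responses of 0.53 in the mutant and 0.06 in wild type that were not called. Hnf4, a receptor for fatty acids that drives their oxidation, was higher too (0.12 ± 0.04). That value is near the median of 0.086 over all readable genes. The clock repressor gene cwo was the 1 of 9 clock genes that was higher (0.25 ± 0.06), and its dimmer probe set gave 0.65 ± 0.20. Of 9 methionine cycle genes only Cbs, cystathionine beta-synthase, was higher (0.51 ± 0.19). Antimicrobial peptides, peptidoglycan recognition proteins, and Turandot and heat shock genes had 0 of 8, 6 and 15, and proteasome and ribosomal protein genes 0 of 34 and 41.

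The vacuolar proton pump had 9 of 27 subunit genes higher and 0 lower, but the differences were small. The list median was 0.12, beside 0.086 for all readable genes. Vha44 had 0.34 ± 0.06 (adjusted p = 0.391), Vha14-1 0.21 ± 0.06, Vha26 0.13 ± 0.04 and Vha16-1 0.12 ± 0.05 (0.36 ± 0.08 on its dimmer probe set), and only Vha100-5 reached 1.5-fold. Their SEs are small beside the median of 0.24 over the readable probe sets. The count was 4 after quantile normalization, 3 with an intensity trend and robust prior and 2 when only readable probe sets were fitted, settings under which 2.97%, 2.73% and 3.15% of all readable genes were higher, so it changed with the scaling and with the probe sets fitted.

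Energy genes differed in sign between copies. Of 67 oxidative phosphorylation genes, none reached the unadjusted p in either direction, and the median was 0.13. The 15 members whose names end in L, for like, are copies of other subunit genes, many of them known from the testis. They had 0 positive differences, from -0.93 to -0.05 with a median of -0.60. Of the other 52, 51 were positive (66.5% of all readable genes were), with a median of 0.14. This split was made after the values were seen. Testis markers themselves had 0 of 22 in either direction, 1 positive difference and a median of -0.57, with median responses of -0.76 in the mutant and -0.20 in wild type, and its array means are those given above. Without array 3 of wild type on sucrose, 14 of the 67 oxidative phosphorylation genes were higher, beside the 7.28% of all readable genes given above; its list mean was 11.59, beside 12.05 and 12.06 on arrays 1 and 2.

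Markers of other tissues had from 0 to 3 members at the unadjusted p. Accessory gland proteins had 1 of 27 higher and a median of -0.20, with median responses of -1.39 in the mutant and -1.12 in wild type; the 1 is Acp65Aa (1.29 ± 0.50), a cuticle protein that the name pattern of the list takes in. Eggshell and yolk genes had 0 of 16 and single values from -1.94 to 2.50. Fat body markers had 1 higher (Lsp2) and 2 lower (apolpp and CG10433) of 8. Hemocyte markers had 1 of 13, Pxn (0.48 ± 0.14), a peroxidase of the extracellular matrix. Oocyte, Malpighian tubule, flight muscle and photoreceptor markers had 0, with medians of 0.07, 0.04, 0.18 and 0.01. All 13 flight muscle genes were above 0, beside 66.5% of all readable genes. Odorant-binding proteins had 1 of 25, Obp83g (0.88 ± 0.31). Juvenile hormone genes had 1 of 5, gce.

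**Figure D5:**
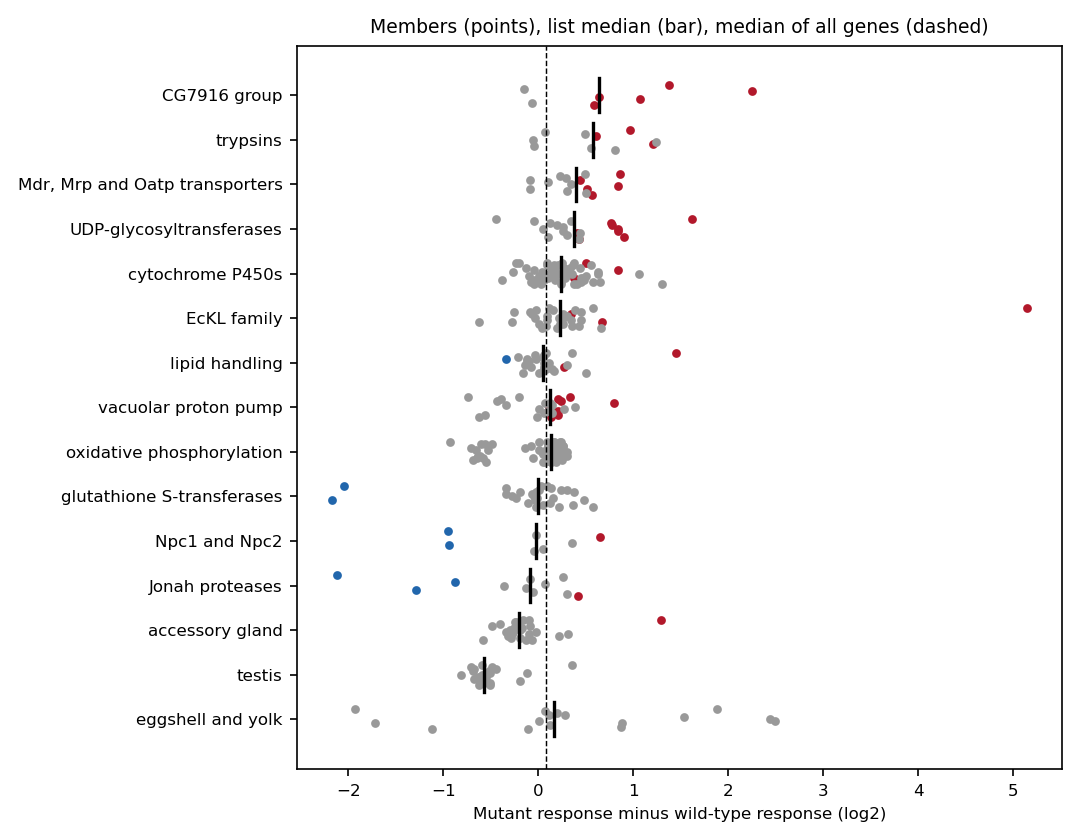
Difference between responses (mutant minus wild type, log2, horizontal axis) of each readable member of 15 gene lists (points), with the list median (bar) and the median of all readable genes (dashed, 0.086); red and blue points are above and below 0 at an unadjusted p under 0.05. The CG7916 group, trypsins, transporters and UDP-glycosyltransferases have medians of 0.38 to 0.64, testis genes one of -0.57, and oxidative phosphorylation genes fall into a cluster above 0 and one near -0.6.

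Some of the genes in the 182 probe sets lie side by side. Of 170 named genes, 11 pairs had at most 1 gene between them, and the members of all 11 pairs had differences of the same sign. Since 147 of the 170 genes had a positive difference, most pairs would share a sign in any case; 1 of the 11 pairs was negative in both. They include the run CG8997, CG7916, CG7953 and CG7968 on chromosome 2L, the trypsin genes lambdaTry, kappaTry and etaTry on 2R, Ugt37A2 with Ugt37A3, Ugt303A1 with CG18577, and Npc2g with Npc2h on 3R, CG5321 with the netrin gene NetB on X, IP3K1 with CG13123 on 2L, and CG8067 with RN-tre on 2R. Most of these pairs are related genes, whose probe sets may share signal. Order along the chromosome is that of the Release 6 gene table, and no coordinates are used.

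The diet on which the genotypes lay further apart was counted by the sign of the difference. This was not counted over all readable probe sets, so whether the splits depart from theirs was not tested. Of the 157 probe sets with a positive difference, 97 had the larger genotype gap on sucrose and 60 on phenobarbital. Of the 25 with a negative one, 7 had it on sucrose and 18 on phenobarbital. The gap itself was called on both diets for 3 of the 182, on phenobarbital alone for 9, on sucrose alone for 9 and on neither for 161; over all probe sets the fit called 22 (0.117%) for genotype on phenobarbital, 0.0746% higher and 0.0426% lower in the mutant, and 40 (0.213%) on sucrose, 0.0586% higher and 0.155% lower. CG4734 was called on both diets and higher in the mutant. Jon65Aii, Jon99Fi, Npc2g, Npc2h and sug were called on phenobarbital and lower in the mutant. Ugt37A3, CG7916 and Lsp2 were called there and higher in the mutant. CG10514, mag, Mrp5, pros, LpR1, CG11912 and gce were called on sucrose and lower in the mutant, and GstD2 was called there and higher in the mutant.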

How the data were processed

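Each of 12 arrays measured whole-fly RNA, 3 per group. The deposited values are intensities per probe set that the authors computed with GCRMA, which corrects background, normalizes and summarises probes, per the submitters' processing notes, which name no version. Their linear scale was inferred from the range (2.46 to 52446), and log2 was taken. Of 18769 probe sets 13647 name 1 gene, 402 several and 4720 none.

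Limma 3.58.1 fitted group means to the 12 arrays together (in R 4.3.3; 8 residual degrees of freedom, 8.82 with the prior), and contrasts gave the difference between responses and its parts. Calls needed 1.5-fold and an adjusted p under 0.05 by the method of Benjamini and Hochberg, taken over every probe set. Errors of differences are SE. A list reads each gene through its brightest probe set.

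The text names the 14 genes of smallest p per sign, the 6 strongest risers and fallers, Hr96, up to 2 members per list and sign, and genes called under an alternative, all with 1 gene name and a mean log2 of at least 4; other list members, neighbours, Npc2d and MFS1 were named after their values were seen. The members and lists were chosen with earlier results of these data known. The scripts were tested on simulated data.

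Alternatives were an intensity trend with robust prior, quantile normalization, only readable probe sets, an offset of 16, array weights, other fold minimums, the replicate number as a block and leaving out each array; covariates of marker means were added after seeing the data. Same-numbered arrays of different groups had correlated deviations of -0.712 to 0.695, over 0.1 in 7 of 18 pairs, so numbers were not taken as pairs. No sequences are printed, since none were used here. Figures were drawn with Python 3.11.15 and matplotlib 3.10.9.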

Additional observations from a re-analysis of the deposited data

Results flagged for a closer look

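Corn, with a difference between responses of 0.729, stood out because its 3 mutant arrays on phenobarbital were all above the 3 on sucrose while its 3 wild-type arrays on phenobarbital were all below the 3 on sucrose. The difference was not past the threshold (adjusted p = 0.820, limma), and 13 of 10341 readable probe sets (0.126%) had opposite responses of this kind. A second corn probe set, with a mean log2 of 2.30, had a difference of -0.10 ± 0.07.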

How the results depend on the processing

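With 3 arrays a group, the number of arrays limits what can be detected. The count of 0 calls for the difference between responses, at 624 probe sets with an unadjusted p under 0.05, became 7 with an intensity trend and robust prior, 2 with log2 of intensity plus 16 and 5 with array weights, where mutant sucrose array 1 took 89.1% of all weight; leaving out 1 array gave 0 to 15, the 15 without wild-type sucrose array 3. CG10514 was called with the trend (adjusted p = 0.033), with the offset of 16 (0.022) and with array weights (0.016), CG4734 with the trend (0.033), with array weights (0.023) and without wild-type sucrose array 3 (0.033), and Jon65Aii with the trend (0.026) and without mutant phenobarbital array 1 (0.039). Without wild-type sucrose array 3, CG1208, CG9837, Ndae1, SmydA-2 and Ugt303A1 were called (adjusted p of 0.030, 0.033, 0.0038, 0.0038 and 0.035), against differences over all arrays of 1.03 ± 0.37, 0.97 ± 0.31, 0.44 ± 0.22, 1.18 ± 0.57 and 0.84 ± 0.29. Array weights gave 2559 calls for phenobarbital in the mutant, 74 and 172 for genotype on phenobarbital and on sucrose, and 232 differences below 0 at an unadjusted p under 0.05, and at 1.5-fold 247 above and 65 below, with 669 above in all and a median of -0.0036. The eggshell and yolk marker mean as a covariate gave 3125 calls in the mutant, 3446 for the mean response and 11 and 16 for genotype on phenobarbital and on sucrose, and 565 differences above and 89 below, 49 of them at 1.5-fold. The testis marker mean gave 83 calls for genotype on sucrose, 632 differences above and 252 below, 45 of these at 1.5-fold, and a median of 0.038. The trend gave 34 calls for genotype on phenobarbital and 286 differences above, quantile normalization 314 above, 116 below and a median of 0.026, the offset 16 below at 1.5-fold, and dropping the minimum fold 1835 calls for the mean response. The cause of these changes was not tested. Leaving out 1 array gave 650 to 870 calls in the mutant, 643 to 861 in wild type, 947 to 1121 for the mean, 17 to 30 for genotype on phenobarbital and 19 to 185 on sucrose, with a median difference of 0.034 to 0.151. It gave 263 to 839 differences above (263 without wild-type phenobarbital array 1, 839 without its array 3, 748 without wild-type sucrose array 3) and 38 to 199 below (199 without wild-type sucrose array 2, 102 without mutant sucrose array 2, 92 and 77 without wild-type phenobarbital arrays 3 and 1). At 1.5-fold it gave 87 to 275 above (87 and 246 without wild-type phenobarbital arrays 1 and 3, 275 without wild-type sucrose array 3) and 16 to 158 below (158 without wild-type sucrose array 2, 65 without wild-type phenobarbital array 3, 59 without mutant sucrose array 2, 16 without mutant phenobarbital array 3 or wild-type sucrose array 3). The sign turned for Hr96 with array weights (-0.14) and the testis covariate (-0.054), and on leaving out 1 array for Hr96 (-0.0035 to 0.273), CG11892 (-0.788 to 0.168), dec (-2.443 to 0.717), Gnmt (-0.815 to 0.112), GstD7 (-0.032 to 0.378) and Vm34Ca (-1.765 to 0.139). The other 52 of the 58 genes named by the rule kept their sign under every alternative run. Most of the 58 were picked for a small p and a large difference in these same arrays, so a kept sign is not separate evidence. With the replicate number as a block the count of calls was 0 for the difference, 763 in the mutant, 718 in wild type and 997 for the mean, 5 of 12 arrays correlated best with their own number, and the block changed no call of a named difference. UDP-glycosyltransferases had 6 to 9 members higher, transporters 4 to 6 and the CG7916 group 4 to 5 over all alternatives, P450s 1 to 19, trypsins 1 to 5 and the proton pump 2 to 9.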
